A study of Homo sapiens with 4 samples.

Results

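HMOX1 and 8 genes of the NRF2 antioxidant system were followed in RNA-seq of MDA-MB-231, an established human line of estrogen receptor-negative breast cancer. The 9 genes, of the 32955 genes in the table, were HMOX1, NFE2L2, NQO1, GCLC, GCLM, TXNRD1, SRXN1, FTH1 and FTL. They were picked by symbol as heme, iron or NRF2 genes after HMOX1 had been seen to fall with the miR-217 mimic, so HMOX1 was selected on its own difference between the groups and that difference is given without a test. The mimic NC group, which received a control oligonucleotide, had 2 libraries, and the group transfected with miR-217 mimic, a synthetic RNA that acts as the microRNA miR-217, also had 2. Within each group the libraries carry the replicate numbers 1 and 2, and what a number marks is not given in the sources used here, nor are the mimic dose and the time from transfection to harvest for these libraries. The p-values measure only the spread between these libraries, which may be technical.

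HMOX1 encodes heme oxygenase 1, the inducible enzyme that splits heme into biliverdin, carbon monoxide and iron. NRF2, the protein of NFE2L2, is held back in the cytoplasm by KEAP1 and marked there for degradation. Under oxidants it enters the nucleus, pairs with a small MAF protein and binds antioxidant response elements near genes of glutathione synthesis, thioredoxin reduction, quinone detoxification and iron storage. BACH1, a repressor that heme inactivates, competes for the same elements and is best known for holding HMOX1 down. The question asked of these libraries was whether the other NRF2 genes moved with HMOX1.

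The microRNA and the stretch of HMOX1 that matches it are shown because the mimic supplies this microRNA and HMOX1 was selected for being lower with it. The mature hsa-miR-217-5p of RefSeq (GRCh38.p14, chr2:55983020-55983042, minus strand) is printed with its seed, bases 2 to 8, in capitals. The 3'UTR of HMOX1, 616 bases long in GENCODE 29 and lying in exon 5 of 5, holds 1 match to that seed at chr22:35394060-35394066 on the plus strand of GRCh38, which is bases 462 to 468 of the 3'UTR. The match is in capitals in a window of the HMOX1 strand, chr22:35394049-35394078, and is followed by an A.
hsa-miR-217-5p: uACUGCAUcaggaacugauugga
HMOX1 3'UTR window: ctcagcctcaaATGCAGTatttttgttgtg
The same 7 bases did not occur in the longest annotated 3'UTR of any of the other 8 genes. Among 9907 tested genes with an annotated 3'UTR, 1440 genes (14.5%) held these 7 bases, whatever base followed. The 7-base match alone thus describes HMOX1 and does not set it apart, and its part in the lower HMOX1 was not tested.

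The antioxidant response element was searched as TGACNNNGCA on both strands in RefSeq promoter windows running from 250 bases before to 50 bases after a gene start. It occurred in 1118 of 35116 windows (3.18%) and in 335 of the 8350 tested genes with a window (4.01%). Of the 7 members with a window, GCLM and TXNRD1 held it. These windows are shown because GCLM was the member that passed the test between the replicate numbers and TXNRD1 was the other holder. The element, in capitals, reads TGACTAAGCA for GCLM and TGACAAAGCA for TXNRD1 on the opposite strand. It lies 35 to 26 bases before the start of GCLM (chr1:93909381-93909680, minus strand) and 103 to 94 bases before a start of TXNRD1 (chr12:104286782-104287081, plus strand).
GCLM promoter: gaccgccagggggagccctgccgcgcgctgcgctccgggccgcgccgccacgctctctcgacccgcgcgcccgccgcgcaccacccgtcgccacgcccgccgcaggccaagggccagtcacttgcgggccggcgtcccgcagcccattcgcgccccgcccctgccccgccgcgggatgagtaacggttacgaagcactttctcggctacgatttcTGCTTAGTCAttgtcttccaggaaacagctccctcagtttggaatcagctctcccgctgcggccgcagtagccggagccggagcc
TXNRD1 promoter: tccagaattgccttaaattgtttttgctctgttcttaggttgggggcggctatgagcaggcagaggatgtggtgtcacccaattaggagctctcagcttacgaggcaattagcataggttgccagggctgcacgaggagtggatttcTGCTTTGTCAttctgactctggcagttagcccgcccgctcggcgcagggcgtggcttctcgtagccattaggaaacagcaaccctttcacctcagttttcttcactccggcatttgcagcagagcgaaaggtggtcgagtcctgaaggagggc
No match in the windows of NFE2L2, GCLC, NQO1, FTL and SRXN1 says only that these letters are not in those 300 bases.

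The libraries held 57933183 and 47374957 reads on genes for mimic NC 1 and 2, and 53356283 and 32635814 for miR-217 mimic 1 and 2. The leading principal component took 71.3% of the variance over 13871 genes and separated both number 1 libraries (19.7 and 17.3) from both number 2 libraries (-12.2 and -24.8). Of the markers of the cell line, ESR1 was at most 0.0756 RPKM (reads scaled by gene length and library size), which fits a line without estrogen receptor, whereas VIM, a mesenchymal filament usually abundant in this line, was at 27.9 to 36.9 RPKM. KRT8, an epithelial keratin, was at 421 and 393 RPKM in the number 1 libraries and at 165 and 154 RPKM in the number 2 libraries. KRT18, its partner, was at 303 and 283 RPKM in number 1 and at 155 and 142 RPKM in number 2. Of other markers taken as low in this line, CDH1 was at 0.169 to 0.433 RPKM, ERBB2 at 2.27 to 3.23 RPKM and EPCAM at 3.90 to 7.41 RPKM. Of those taken as present, CD44 was at 13.5 to 26.0 RPKM and KRT19 at 0.416 to 0.944 RPKM. EGFR was also taken as present in this line, and its value is not given here. The cell line is named here as labelled. Blood and stroma markers were low, with 9 of 10 listed genes in the table summing to 1.92 to 3.26 RPKM in 3 libraries and to 5.85 RPKM in miR-217 mimic 2, where 7 of the 9 were highest. LYZ, a myeloid lysozyme, was at 3.44 RPKM there and at 0.933 to 1.36 RPKM elsewhere. PTPRC, the leukocyte antigen CD45, was at 1.25 RPKM there and at 0.351 to 0.504 RPKM elsewhere, and COL1A2 was at or near 0 in all 4 libraries. COL1A1, the other collagen of the list, was at 1.10 and 1.02 RPKM in the number 1 libraries and at 0.434 and 0.506 RPKM in the number 2 libraries.

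HMOX1 (chr22:35380361-35394214, plus strand, hg38) was a gene of low level whose RPKM was lower in both miR-217 mimic libraries. It was at 4.07 RPKM in mimic NC 1 and 4.13 RPKM in mimic NC 2, against 2.35 RPKM in miR-217 mimic 1 and 1.07 RPKM in miR-217 mimic 2. The control libraries lay close together, the mimic libraries did not overlap them, and the mimic libraries lay far from each other. The group means were 4.10 ± 0.0393 RPKM for mimic NC and 1.71 ± 0.902 RPKM for miR-217 mimic (SD, n = 2), a difference of -58.3%. In bulk libraries fewer cells with HMOX1 RNA and less of it per cell cannot be told apart. Compared with the control of the same number, the RPKM differed by -42.4% for number 1 and by -74.1% for number 2.

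The reads behind these values were 567 and 470 in mimic NC 1 and 2 and 301 and 84 in miR-217 mimic 1 and 2. The 95% exact Poisson intervals, which cover counting error only, ran from 3.74 to 4.42 RPKM and from 3.76 to 4.52 RPKM in mimic NC 1 and 2. They ran from 2.09 to 2.63 RPKM in miR-217 mimic 1 and from 0.854 to 1.33 RPKM in miR-217 mimic 2. The intervals of the mimic libraries did not overlap those of the controls, a gap that belongs to the difference that chose HMOX1. They did not overlap each other either, so counting error alone did not cover the gap between the mimic libraries.

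**Figure D1:**
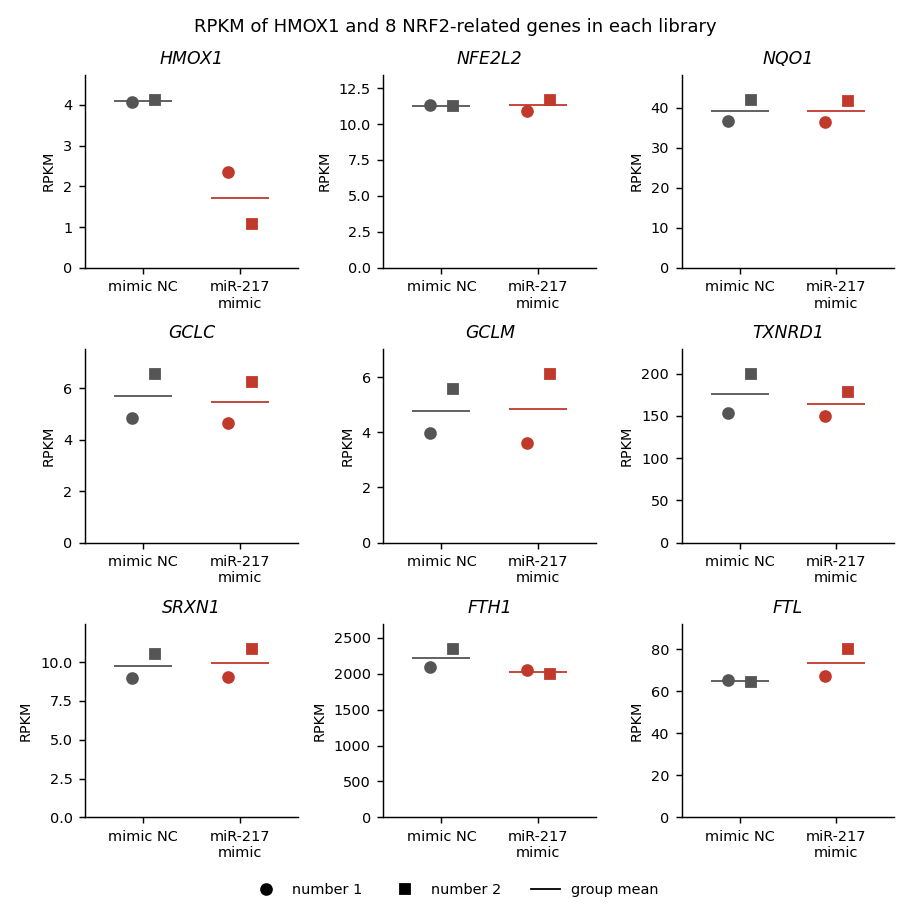
RPKM (y axis, linear, from 0) of the 9 genes in each library. Circles are number 1, squares are number 2, and horizontal lines are group means of 2 libraries. HMOX1 was at 2.35 and 1.07 RPKM with miR-217 mimic against 4.07 and 4.13 RPKM with mimic NC, whereas for NQO1, GCLC, GCLM, TXNRD1 and SRXN1 both squares lie above both circles.

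On the log2(RPKM + 1) scale the difference of HMOX1 between the groups was -0.95, the 10th lowest of 13871 tested genes. Within number 1 it was -0.60 (82nd lowest) and within number 2 it was -1.31 (15th lowest). These ranks describe the value that chose the gene. Whether the fall was deeper in number 2 could not be tested, as each number held 1 library of each group. The miR-217 mimic 2 library that was lowest for HMOX1 was also the library with fewest reads and with the highest blood and stroma markers, and their part in the result was not tested.

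The other 8 genes were tested with limma on log2(RPKM + 1) between the groups, with adjustment over all 13871 genes with a mean of at least 1 RPKM, a filter that all 9 members passed. None of the 8 passed, and each had an adjusted p of 1.00. None of the 8 had an unadjusted p under 0.05 either, while 165 of 13871 genes did, and 0% of all genes passed the adjusted threshold of 0.05. With limma voom on recovered reads 80 genes had an unadjusted p under 0.05 and 0 passed after adjustment. An exact permutation test of 2 against 2 libraries cannot give a two-sided p under 0.333. This fit had no term for the replicate number, so its SEs, intervals and p-values also hold the difference between the numbers. The median difference of the 8 genes was -0.0029, beside -0.017 over all tested genes. It was -0.029 within number 1 and 0.012 within number 2.

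NFE2L2 (chr2:177227595-177392697, minus strand), which encodes NRF2 itself, was at 11.3, 11.2, 10.9 and 11.7 RPKM in mimic NC 1, mimic NC 2, miR-217 mimic 1 and miR-217 mimic 2. The 4 libraries lay close together, and the groups overlapped. The log2 difference between the groups was 0.0043 (SE 0.11), with a 95% interval from -0.29 to 0.30. NRF2 is controlled largely through the stability of its protein, which these libraries do not measure. On the same strand AC074286.1, at 0.272 to 0.504 RPKM, shares 17.6% of the exon bases of NFE2L2.

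NQO1 (chr16:69706996-69726951, minus strand), a quinone reductase that is the most used reporter of NRF2 activity, was at 36.5 and 41.9 RPKM in mimic NC 1 and 2 and at 36.5 and 41.6 RPKM in miR-217 mimic 1 and 2. Libraries of the same number were almost equal, and the groups overlapped. The log2 difference was -0.0070 (SE 0.14, 95% interval -0.38 to 0.37). The sign of so small a difference turned with median centring (0.019) and with voom (0.0039). An opposite-strand gene, CTD-2033A16.1, shares 17.7% of the exon bases of NQO1 and was at 11.1 to 13.9 RPKM.

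GCLC (chr6:53497341-53616970, minus strand) and GCLM (chr1:93885205-93909456, minus strand) encode the catalytic and the modifier subunit of glutamate-cysteine ligase, the rate-limiting enzyme of glutathione synthesis. GCLC was at 4.84 and 6.53 RPKM in mimic NC 1 and 2 and at 4.65 and 6.25 RPKM in miR-217 mimic 1 and 2. GCLM was at 3.96 and 5.58 RPKM in mimic NC 1 and 2 and at 3.61 and 6.09 RPKM in miR-217 mimic 1 and 2. Both subunits overlapped between the groups, and both were higher in each number 2 library than in either number 1 library. The log2 difference between the groups was -0.052 (SE 0.20, 95% interval -0.57 to 0.47) for GCLC. For GCLM it was 0.0012 (SE 0.27, 95% interval -0.69 to 0.69), and it turned sign with a pseudocount of 0.1 (-0.0028) and with voom (-0.014). Within number 1 and number 2 the mimic difference was -0.048 and -0.056 for GCLC and -0.11 and 0.11 for GCLM. The SEs of both genes thus hold mostly the difference between the numbers.

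TXNRD1 (chr12:104215779-104350305, plus strand), the cytosolic thioredoxin reductase, was at 154 and 199 RPKM in mimic NC 1 and 2 and at 150 and 179 RPKM in miR-217 mimic 1 and 2. SRXN1 (chr20:646615-653370, minus strand), which encodes sulfiredoxin, the enzyme that repairs overoxidized peroxiredoxins, was at 9.01 and 10.5 RPKM in mimic NC 1 and 2 and at 9.04 and 10.8 RPKM in miR-217 mimic 1 and 2. The groups overlapped for both genes. The log2 difference was -0.095 (SE 0.19, 95% interval -0.60 to 0.41) for TXNRD1 and 0.021 (SE 0.15, 95% interval -0.37 to 0.41) for SRXN1. The value of SRXN1 is uncertain, since another listed gene on the same strand shares 85.0% of its exon bases and was listed at 8.45 to 10.2 RPKM.

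FTH1 (chr11:61959718-61967660, minus strand), the ferritin heavy chain that oxidizes iron for storage, was at 2089 and 2342 RPKM in mimic NC 1 and 2 and at 2055 and 2001 RPKM in miR-217 mimic 1 and 2. FTL (chr19:48965301-48966878, plus strand), the ferritin light chain, was at 65.4 and 64.5 RPKM in mimic NC 1 and 2 and at 67.3 and 80.1 RPKM in miR-217 mimic 1 and 2. The groups did not overlap for either chain, FTH1 being lower and FTL higher with the mimic. The log2 differences were -0.13 (SE 0.17, 95% interval -0.57 to 0.32) for FTH1 and 0.17 (SE 0.14, 95% interval -0.20 to 0.55) for FTL, and neither passed. The highest FTL value was in miR-217 mimic 2, the library with the highest blood and stroma markers, and the part of those markers in FTL was not tested.

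Without overlap between the groups, 2 of the 9 genes were lower with the mimic (HMOX1 and FTH1), beside 13.5% of all tested genes, and 1 was higher (FTL), beside 9.72%. HMOX1 was in that count by its selection. The ferritin chains share reads with near-identical copies, and 18 listed FTH1 pseudogenes held 428 to 1152 reads a library, which is 0.323 to 0.518% of the FTH1 reads. For FTL, 5 listed pseudogenes held 5 to 17 reads, or 0.218 to 0.539% of the FTL reads. BEST1 on the opposite strand shares 62.4% of the exon bases of FTH1 and was listed at 383 to 419 RPKM. Whether counting used the strand is not given in the sources used here, and without strand the reads of FTH1 and BEST1 cannot be told apart.

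**Figure D2:**
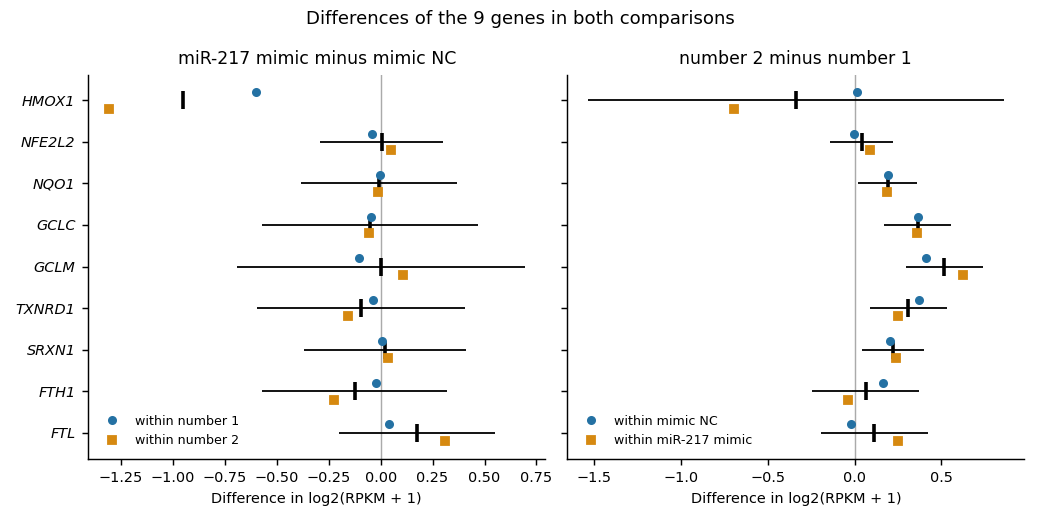
Difference in log2(RPKM + 1) of the 9 genes between miR-217 mimic and mimic NC (left) and between number 2 and number 1 (right). Black ticks are the fitted difference, black lines its 95% interval from limma (none for HMOX1 on the left, which was selected on that value), and circles and squares the differences within each number (left) or group (right). On the left HMOX1 is at -0.95 while the other 8 genes lie between -0.13 and 0.17, and on the right GCLM is highest at 0.52.

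The comparison of the replicate numbers separated several of the same genes. Both number 2 libraries were above both number 1 libraries for 5 of the 9 genes (NQO1, GCLC, GCLM, TXNRD1 and SRXN1), beside 26.9% of all tested genes, and for 0 of the 9 genes the order was reversed, beside 35.5%. These 5 genes were the enzymes of glutathione synthesis, thioredoxin and sulfiredoxin reduction and quinone detoxification. HMOX1, NFE2L2 and the ferritin chains overlapped between the numbers. At an adjusted p under 0.05, 1 of the 9 genes rose in number 2 (GCLM) and 0 fell, beside 3.34% of all tested genes that rose and 3.71% that fell.

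GCLM rose in number 2. Its mean was 3.78 ± 0.246 RPKM in number 1 and 5.84 ± 0.36 RPKM in number 2 (SD, n = 2), a difference of 54.3%. The log2 difference was 0.52 (SE 0.086, 95% interval 0.29 to 0.74, adjusted p = 0.0410). It was 0.41 within mimic NC and 0.62 within miR-217 mimic, so the direction held within each group. The call was lost when genes of low level were kept in the fit (adjusted p = 0.125), without mimic NC 1 (adjusted p = 0.245) and without miR-217 mimic 1 (adjusted p = 0.279).

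GCLC, the partner subunit, was 34.6% higher in number 2, with a log2 difference of 0.36 (SE 0.074, adjusted p = 0.0550). It did not pass, and it did pass with median centring (adjusted p = 0.0439) and with voom (adjusted p = 0.00933). TXNRD1 was 24.3% higher (log2 difference 0.31, SE 0.086, adjusted p = 0.0931), and SRXN1 was 18.4% higher (0.22, SE 0.068, adjusted p = 0.110). NQO1 was 14.5% higher (0.19, SE 0.065, adjusted p = 0.135). These 3 genes did not pass, although their libraries did not overlap. The within-group differences were close for NQO1, at 0.19 within mimic NC and 0.19 within miR-217 mimic, and for GCLC, at 0.37 and 0.36.

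NFE2L2 differed between the numbers by 0.041 on the log2 scale (SE 0.070, adjusted p = 0.719, 95% interval -0.14 to 0.22). FTH1 differed by 0.064 (SE 0.12, adjusted p = 0.744) and FTL by 0.11 (SE 0.12, adjusted p = 0.556), and for both chains the sign was opposite in the 2 groups. HMOX1 differed by -0.34 (SE 0.46, adjusted p = 0.655). The spread in this limma fit includes the mimic difference on which HMOX1 was selected, so its SE and p depend on that selection. With a replicate block in the limma fit the adjusted p was 0.282. The difference of HMOX1 between the numbers was 0.016 within mimic NC and -0.69 within miR-217 mimic, so the low value of miR-217 mimic 2 carried it. The median difference of the 8 genes other than HMOX1 was 0.21, with 0.20 within mimic NC and 0.24 within miR-217 mimic, beside -0.035 over all tested genes.

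By Euclidean distance between centred log2(RPKM + 1) values over the 4 libraries, the nearest of the 8 to HMOX1 was FTH1, ranked 3283 of 13870 genes, and the furthest was GCLM, ranked 12812, with NFE2L2 near the middle at 8077. These distances include the difference that chose HMOX1 and are a description. The 5 genes nearest to HMOX1 were SNORD89, SNORD45A, RNU6-834P, RP11-474O21.5 and UBXN7-AS1, at distances of 0.159 to 0.295. SNORD89, a small nucleolar RNA gene, had 30 and 27 reads in mimic NC 1 and 2 and 16 and 4 reads in miR-217 mimic 1 and 2. SNORD45A had 24, 23, 11 and 4 reads in the same order, and UBXN7-AS1, an antisense gene, had 254, 236, 168 and 72 reads. These genes have few reads, and the likeness is over 4 libraries.

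Around the 9 genes, 8 lists covered 139 genes of the wider system, of which 135 were in the table and 119 were tested. With the mimic 0 of the 119 passed and 0 had an unadjusted p under 0.05. Of all 13871 tested genes 0 passed and 165 had an unadjusted p under 0.05, so few were to be found in any list. Their median difference was -0.025, and 11 of them were higher and 11 lower without overlap between the groups, beside 9.72% higher and 13.5% lower of all tested genes. Between the numbers 13 of the 119 rose and 7 fell in number 2, beside 3.34% and 3.71% of all tested genes, with a median difference of 0.024 beside -0.035. The 20 calls depended on the setting, numbering 0 with no filter on low values and 42 with voom. They numbered 0 without mimic NC 1, 44 without mimic NC 2, 1 without miR-217 mimic 1 and 34 without miR-217 mimic 2.

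Among the regulators of NRF2, 3 of 16 tested genes rose in number 2 and 0 fell (all tested genes 3.34% and 3.71%), with a median difference of 0.12. The 3 calls went to 0 without mimic NC 1 or miR-217 mimic 1 and with no filter on low values, to 6 without mimic NC 2 or miR-217 mimic 2, and to 8 with voom. SQSTM1, an autophagy receptor that sequesters KEAP1, was at 28.1 and 42.3 RPKM in mimic NC 1 and 2 and at 25.8 and 38.8 RPKM in miR-217 mimic 1 and 2 (log2 difference 0.57, adjusted p = 0.0337). NFE2L1, an NRF2 relative that drives proteasome genes, was at 73.6 and 107 RPKM and at 73.2 and 98.7 RPKM (0.48, adjusted p = 0.0378). MAFG, a small MAF partner of NRF2, was at 3.77 and 5.81 RPKM and at 3.49 and 5.24 RPKM (0.49, adjusted p = 0.0437). Both number 2 libraries were above both number 1 libraries for 10 of the 16 genes, these 3 among them, and below for 2. Of all tested genes 26.9% were above and 35.5% below.

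The other core regulators did not pass. KEAP1, the sensor that holds NRF2, was at 3.73 and 3.78 RPKM in mimic NC 1 and 2 and at 3.58 and 4.05 RPKM in miR-217 mimic 1 and 2. BACH1, the repressor of HMOX1, was at 2.42 and 2.67 RPKM and at 2.32 and 2.46 RPKM. Neither separated the groups, and the mimic difference was 0.017 (SE 0.12) for KEAP1 and -0.063 (SE 0.12) for BACH1. CUL3, the ubiquitin ligase scaffold that acts with KEAP1, was lower in number 2 by value (log2 difference -0.31, adjusted p = 0.0645). MAFF, another small MAF gene, was higher by value (0.63, adjusted p = 0.0547).

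**Figure D3:**
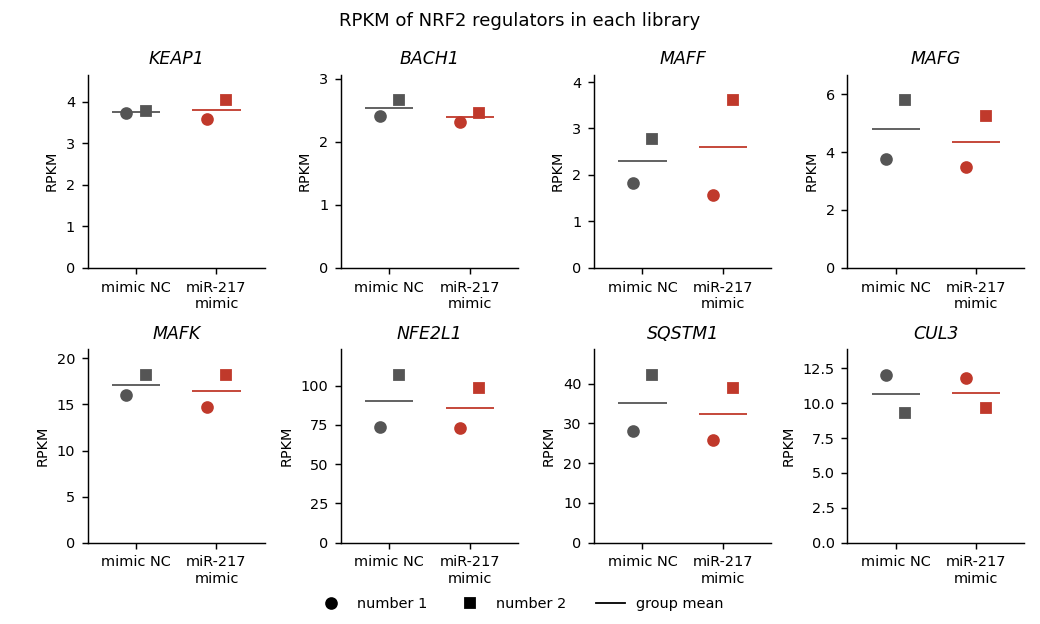
RPKM (y axis, linear, from 0) of 8 NRF2 regulators in each library. Circles are number 1, squares are number 2, and horizontal lines are group means of 2 libraries. The squares lie above the circles in both groups for MAFG, NFE2L1 and SQSTM1, which passed the test between the numbers. They also do so, by less, for KEAP1 and BACH1, which did not pass and show little difference between the groups.

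Of 22 tested glutathione genes, 6 rose and 2 fell in number 2 (all tested genes 3.34% and 3.71%), with a median difference of 0.10. SLC7A11, the cystine carrier of the cystine-glutamate antiporter, was at 3.51 and 16.9 RPKM in mimic NC 1 and 2 and at 3.58 and 11.6 RPKM in miR-217 mimic 1 and 2 (log2 difference 1.72, adjusted p = 0.0189). CHAC1, which degrades glutathione, was at 0.369 and 4.19 RPKM and at 0.428 and 3.93 RPKM (1.86, adjusted p = 0.00868). These genes act in opposite directions on glutathione, one bringing in cystine for its synthesis and the other breaking it down, and both rose.

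SLC3A2, the chain that pairs with SLC7A11, also rose (0.69, adjusted p = 0.0274), as did GPX1, a glutathione peroxidase (0.69, adjusted p = 0.0440). The remaining rises were the efflux transporters ABCC2 (0.51, adjusted p = 0.0439) and ABCC3 (0.50, adjusted p = 0.0366). The falls were the glutathione transferases GSTM4 (-0.57, adjusted p = 0.0329) and GSTM1 (-0.50, adjusted p = 0.0382), paralogs whose reads may be split between genes. With the mimic the log2 difference of SLC7A11 was -0.24 (SE 0.81) and that of CHAC1 was -0.0072 (SE 0.86), and within each group the numbers lay far apart for both genes.

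Of 16 tested thioredoxin and peroxiredoxin genes, 2 rose and 1 fell (all tested genes 3.34% and 3.71%), with a median difference of -0.21, the opposite sign to the median of the 8 genes. SESN2, a stress-induced sestrin, was at 1.42 and 4.02 RPKM in mimic NC 1 and 2 and at 1.44 and 4.65 RPKM in miR-217 mimic 1 and 2 (log2 difference 1.13, adjusted p = 0.0147). TXNIP, which inhibits thioredoxin, was at 6.45 and 10.6 RPKM and at 5.13 and 10.9 RPKM (0.79, adjusted p = 0.0335). SOD1, the cytosolic superoxide dismutase, fell and was at 189 and 119 RPKM and at 204 and 140 RPKM (-0.61, adjusted p = 0.0437). The members that rose were thus a sestrin and an inhibitor, and TXN itself had a difference of -0.22 (adjusted p = 0.268).

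Of 21 tested genes of NADPH supply and detoxification, 1 rose and 1 fell (all tested genes 3.34% and 3.71%), with a median difference of 0.024. TRIM16L was at 7.64 and 10.7 RPKM in mimic NC 1 and 2 and at 7.31 and 10.3 RPKM in miR-217 mimic 1 and 2 (log2 difference 0.44, adjusted p = 0.0407). AKR1C3, an aldo-keto reductase with close paralogs, fell and was at 26.5 and 18.1 RPKM and at 24.9 and 19.0 RPKM (-0.45, adjusted p = 0.0405).

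In the heme lists, 0 of 7 tested genes of heme synthesis passed (median difference 0.055), and 1 of 12 genes of heme handling rose and 0 fell (median difference -0.12), beside 3.34% and 3.71% of all tested genes. That gene was SLC48A1, which carries heme out of endosomes and lysosomes, at 4.79 and 8.04 RPKM in mimic NC 1 and 2 and at 4.57 and 7.83 RPKM in miR-217 mimic 1 and 2 (log2 difference 0.65, adjusted p = 0.0226). HMOX2, the constitutive heme oxygenase, was at 19.8 and 16.2 RPKM and at 18.9 and 13.9 RPKM. The level of HMOX2 per length was thus above that of HMOX1 in every library, and its mimic difference was -0.14 (SE 0.20). BLVRA and BLVRB, the biliverdin reductases that act after heme oxygenase, had mimic differences of -0.10 (SE 0.22) and -0.099 (SE 0.20).

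Of 20 tested iron genes, 0 rose and 2 fell in number 2 (all tested genes 3.34% and 3.71%), with a median difference of 0.0046. NCOA4, the receptor that takes ferritin to the lysosome, was at 41.6 and 27.2 RPKM in mimic NC 1 and 2 and at 39.5 and 22.7 RPKM in miR-217 mimic 1 and 2 (log2 difference -0.68, adjusted p = 0.0357). STEAP3, a ferrireductase of endosomes, was at 12.9 and 8.60 RPKM and at 12.2 and 9.13 RPKM (-0.46, adjusted p = 0.0408). TFRC, the transferrin receptor, had a mimic difference of 0.083 (SE 0.17). Of 5 tested metal-response genes 0 rose and 1 fell (median difference -0.26, all tested genes 3.34% and 3.71%), which was the metallothionein MT1X (-0.65, adjusted p = 0.0335), one of a family of near-identical copies.

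**Figure D4:**
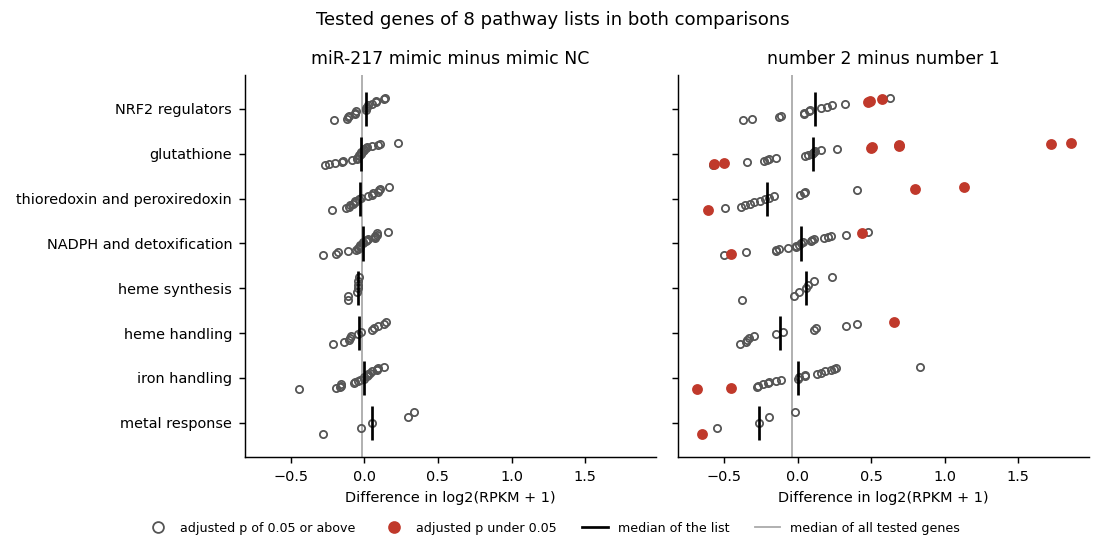
Difference in log2(RPKM + 1) of the 119 tested genes of 8 pathway lists between miR-217 mimic and mimic NC (left) and between number 2 and number 1 (right). Filled circles had an adjusted p under 0.05, open circles did not, black ticks are list medians and the grey line is the median of all tested genes (-0.017 and -0.035). No circle is filled on the left, and 13 rises and 7 falls are filled on the right, the largest being CHAC1 at 1.86 and SLC7A11 at 1.72.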

How the data were processed

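RNA-seq of 4 MDA-MB-231 libraries was used. The authors deposited 1 table of RPKM values for 32955 genes, scaled by gene length and by reads on the listed genes. The submitters' processing notes name Trimmomatic 0.36, featureCounts, Subread 1.5.1, edgeR 3.12.1 and hg38, with no roles. The aligner and annotation are not given in the sources used here. All nonzero RPKM values came back as whole reads within 0.1 read. Extraction used TRIzol, and the library kit was stranded and selected mRNA.

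Groups and numbers came from the sample labels. Values were tested as log2(RPKM + 1), for the 13871 genes whose RPKM averaged 1 or more, with limma 3.58.1 in R 4.3.3 (two-sided, variance trend, Benjamini-Hochberg over all genes tested), for mimic against control and for number 2 against number 1. A fold on this scale understates the change of low genes. The fits were also run on simulated counts. These lacked the wide difference between the numbers seen in the libraries, so they do not show how the fits behave here. Other settings were no filter, a minimum average RPKM of 5, a pseudocount of 0.1, voom on recovered reads, median centring, a replicate block, and leaving out each library.

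The members and lists were chosen with earlier results of these data known. The text names the 9 members, the called genes of each list (at most 4 rises and 4 falls), the 5 genes nearest to HMOX1, ferritin pseudogenes and markers. ABCC2, ABCC3, KEAP1, BACH1, CUL3, MAFF, MAFK, TXN, HMOX2, BLVRA, BLVRB and TFRC were named after their values were seen. Seed matches used GENCODE 29 3'UTRs and promoters came from RefSeq (GRCh38.p14). HMOX1 and FTH1 have no promoter sequence here. Plots were made with matplotlib 3.10.9 in Python 3.11.15.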

Additional observations from a re-analysis of the deposited data

How the results depend on the processing

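With the mimic, 0 of the 8 genes other than HMOX1 and 0 of the pathway genes passed under every setting that kept all libraries. Of all tested genes 0 passed under these settings too, so the counts do not set the members or pathway genes apart. Between the numbers, members that passed numbered 1 in the fit reported, 0 with no filter on low values, 2 with median centring (GCLC and GCLM) and 3 with voom (GCLC, GCLM and TXNRD1). With a mean RPKM of at least 5 it was 1, GCLC, since GCLM lies under that minimum. Pathway genes that passed numbered 20, 0 with no filter and 42 with voom. With no filter the difference of GCLM stayed at 0.52 (adjusted p = 0.125). The share of all genes called was 0.0091% with no filter, 15.8% at a mean RPKM of at least 5 and 16.2% with voom. The mimic difference turned sign for NQO1 with median centring (0.019) and voom (0.0039), and for GCLM with a pseudocount of 0.1 (-0.0028) and voom (-0.014). The cause was not tested.

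Leaving out a library left its arm with 1 sample, assumed to vary like the other. Members called between the numbers then ranged from 0 to 4. They were 0 without mimic NC 1 or miR-217 mimic 1, 4 without mimic NC 2 (HMOX1, GCLC, GCLM and FTL) and 3 without miR-217 mimic 2. Pathway genes called ranged from 0 to 44 and the share of all genes from 0.0649% to 28.3%. GCLM ranged from 0.46 to 0.57 between the numbers and lost its call without mimic NC 1 or miR-217 mimic 1. The mimic difference changed sign for NFE2L2 (-0.040 to 0.049), NQO1 (-0.10 to 0.090), GCLC (-0.24 to 0.13), GCLM (-0.31 to 0.31), TXNRD1 (-0.28 to 0.090) and SRXN1 (-0.097 to 0.14), whereas HMOX1 lay between -1.30 and -0.61. Between the numbers FTH1 (-0.050 to 0.18), FTL (-0.040 to 0.27) and HMOX1 (-0.99 to 0.32) changed sign. These differences between the numbers hold part of the mimic difference, because an arm with 1 library holds only 1 group. Without mimic NC 2, number 2 is miR-217 mimic 2 alone. The -0.99 of HMOX1 there includes the mimic difference on which HMOX1 was selected, so its place among the 4 members is not a test. The 0.27 of FTL there rests on the high value of miR-217 mimic 2. Neither call separates the number from the mimic.

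The replicate numbers form 2 pairs, and what the libraries of a pair share beyond the number is not given. Deviations of same-numbered libraries from their group means correlated at 0.68 over 13871 genes. With the replicate block 0 of the 8 genes other than HMOX1 passed for the mimic and 1 of the 9 passed between the numbers (GCLM), 1046 genes had an unadjusted mimic p under 0.05 and 0 passed after adjustment. Depth limits HMOX1 most, at 84 reads in miR-217 mimic 2.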
